A study of Homo sapiens with 6 samples.

Results

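The genes described here are 40 receptors, destruction complex members, nuclear factors, inhibitors and targets of the Wnt pathway, listed by symbol and role. Of the 40, 39 were measured among 18404 named genes, by the brightest probe set that carries the symbol, a probe set being a group of probes summarised into 1 value. The intensity of TCF7 was not analysed here. The study used SNU-398, a line established from a human hepatocellular carcinoma, and 6 Affymetrix expression arrays. Cells carried either a scrambled short hairpin RNA (shRNA), the control, or one directed at SALL4. Each group has 3 samples of total RNA, which the labels call biological replicates and describe no further, so p-values measure the spread between these samples. All 6 share the same line and medium, and neither a treatment time nor a further SALL4 hairpin or rescue is named, so a side effect of the hairpin and an effect of reduced SALL4 cannot be told apart.

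In the canonical Wnt pathway, a secreted Wnt protein binds a frizzled receptor and its co-receptor LRP5 or LRP6, and dishevelled proteins then disable the complex of axin, APC and casein kinases that marks beta-catenin for destruction. Beta-catenin, encoded by CTNNB1, enters the nucleus, joins the DNA-binding factors LEF1, TCF7, TCF7L1 and TCF7L2, and switches on targets, several of which feed back as inhibitors. In liver the pathway sets the gene programme of hepatocytes around the central vein, and activating mutations of CTNNB1 are frequent in hepatocellular carcinoma. SNU-398 is known to carry such a mutation, so its pathway is switched on below the receptors. SALL4 encodes a zinc finger protein that regulates transcription in embryonic stem cells and is active in the fetal liver.

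No Wnt member passed the test across all genes. The direct targets AXIN2, SP5, NKD1, NOTUM and CCND1 lay at overlapping levels with either shRNA, which does not show that they were unchanged. Groups were separate for the inhibitor gene DKK1 and for the target LGR5, which was too dim to be tested. They were also separate for 4 of 16 tested targets outside the members, and for 22.2% of all tested genes. The test was limma's moderated test on log2 intensities of 13325 genes, those averaging 5 or more on that scale (an intensity of 32) over all arrays, and passing means a Benjamini-Hochberg adjusted p under 0.05. The 5 members with an unadjusted p under 0.05 were the receptor gene FZD6 (higher by 0.68 on the log2 scale), the kinase gene CSNK1A1 (0.53), the nuclear factor genes TCF7L2 (0.43) and LEF1 (-0.59), and the inhibitor gene DKK1 (-0.60). Of 84 other Wnt pathway genes tested, 1 passed, where 1.65% of all tested genes did: RUVBL1, an ATPase known to bind beta-catenin, fell by 1.33 on the log2 scale, a call that held in 9 of 18 other settings.

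Of the 39 measured members 36 were bright enough to be tested; LGR5, RNF43 and DKK4 were below the filter. In limma 0 of the 36 passed, where 1.65% of all tested genes did (220 of 13325; 80 or 0.6% higher and 140 or 1.05% lower with the SALL4 shRNA). At an unadjusted p under 0.05 limma had 5 of the 36, a share of 13.9% against 16.8% of all genes, with 3 higher (8.08% of all genes) and 2 lower (8.68%). Groups did not overlap in 4 of the 36 (FZD6, TCF7L2, DKK1 and DKK3), against 22.2% of all genes. Differences were above 0 in 23 of the 36, against 52.3% of all genes, and their median was 0.16 on the log2 scale, against 0.02 over all genes. Without scrambled replicate 3 the members' median was 0.026, against 0.0091 over all genes, and without SALL4 shRNA replicate 2 as well it was 0.053. Without SALL4 shRNA replicate 1 or 3 it was 0.095 (0.0048 and 0.017 over all genes). Without scrambled replicate 1 it was 0.114, without scrambled replicate 2 0.152 and without SALL4 shRNA replicate 2 alone 0.115 (0.018, 0.024 and 0.029 over all genes). The members ranged from -0.60 to 0.68, and the smallest change among the 220 genes that passed was 0.79 in size. The 95% intervals in the plot of differences are those of the single genes. Without scrambled replicate 1 or 2 the count at an unadjusted p under 0.05 was 2, and without SALL4 shRNA replicate 1 it was 3. No member passed under any of the 18 other settings tried.

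**Figure D1:**
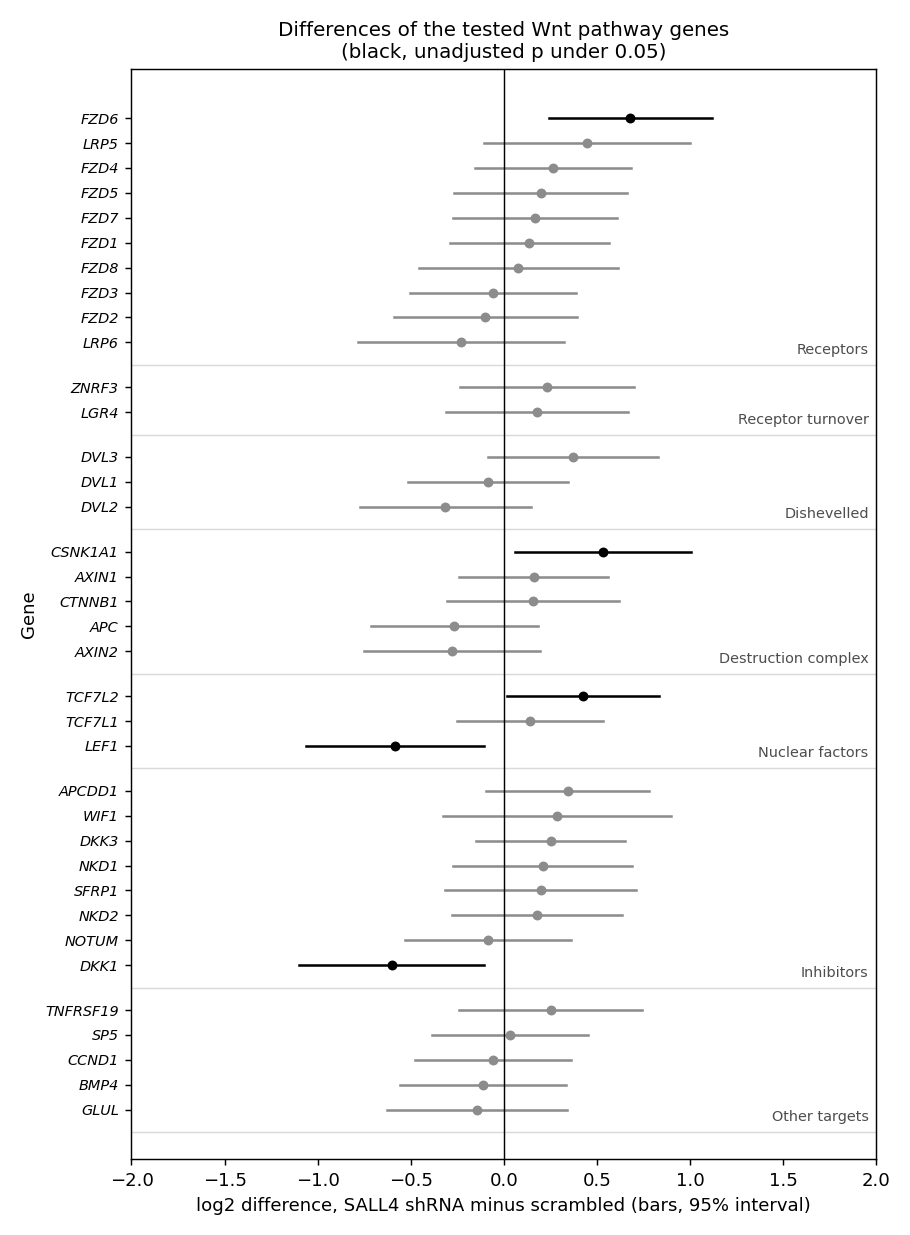
Difference on the log2 scale, SALL4 shRNA minus scrambled, of the 36 tested Wnt members, grouped by role; points are the limma estimates and bars their 95% intervals (3 arrays a group). Intervals of FZD6, CSNK1A1 and TCF7L2 lie above 0 and those of LEF1 and DKK1 below it; the other 31 include 0.

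The target of the hairpin checks the labels. SALL4 intensity was 283, 264 and 335 with the scrambled shRNA and 121, 119 and 117 with the SALL4 shRNA. All 3 knockdown arrays lay below all scrambled arrays. SALL4 fell by 1.30 ± 0.18 (SE) on the log2 scale, to 40.6% of the control (limma adjusted p 0.0108; exact two-sided permutation p 0.1, the smallest that 3 against 3 arrays allow). The second principal component, 20.1% of the variance of the tested genes, set scrambled replicate 3 (-18.1) and SALL4 shRNA replicate 2 (-23.6) apart from the other arrays (1.12 to 16.7). Without this pair of arrays the SALL4 adjusted p was 0.0691, and 20 genes passed. Markers of mature hepatocytes were low: 4 of 13 measured reached the brightness filter, and ALB, the albumin gene, lay between 10.1 and 12.8, next to the floor of 10 that the deposited values have. Of 9 oncofetal liver genes 8 reached it; AFP did not. Of 7 endothelial markers 0 reached it, of 8 blood cell markers 2 (CD68 and CD79A) and of 5 cholangiocyte markers 4, and the pan-leukocyte gene PTPRC was at the floor on all arrays. All 8 fibroblast and stellate cell markers reached it, with summed intensities of 2394 to 2514 with the scrambled and 1921 to 2538 with the SALL4 shRNA, with differences above 0 in 4 and below 0 in 4 and a median of -0.02. Of these markers 1 passed, DCN, a matrix proteoglycan gene, which fell by 1.25 (limma adjusted p 0.0218). The collagen genes COL1A2 (0.50) and COL3A1 (-0.54) also had separate groups, on opposite sides of 0, and did not pass. The part of these markers in the differences below was not tested. All samples are of the line SNU-398, and in bulk samples fewer cells that express a gene and less RNA per cell cannot be told apart.

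Frizzled receptors bind Wnt proteins at the cell surface. Of the 8 frizzled genes in the list, 6 had a difference above 0 and 2 below it, with a median of 0.15. FZD6, a frizzled best known from planar polarity of hair and skin, had intensities of 178, 142 and 152 with the scrambled shRNA and 227, 310.2 and 223 with the SALL4 shRNA. All 3 knockdown arrays lay above all 3 scrambled arrays, with replicate 2 the highest. The difference was 0.68 ± 0.20 (SE), or 160.1% of the scrambled level, with a 95% interval of 0.24 to 1.12 and a limma adjusted p of 0.108 (unadjusted 0.00549; exact permutation p 0.1). FZD6 had an unadjusted limma p under 0.05 under all 18 other settings, with adjusted p from 0.0763 to 0.350. Without scrambled replicate 3 and SALL4 shRNA replicate 2 the difference was 0.50.

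The other 7 frizzled genes had adjusted p from 0.538 to 0.926. FZD4, a receptor for the ligand norrin as well as Wnts, was at 61.6 ± 2.35 and 74.6 ± 13.6 (SD, n = 3 each), a difference of 0.26 ± 0.19. FZD5 was at 0.20 ± 0.21, FZD7 at 0.17 ± 0.20 and FZD1 at 0.14 ± 0.20. FZD8 (0.08), FZD3 (-0.06) and FZD2 (-0.10) were closest to 0, and each changed sign when some array was left out. Their intervals were -0.46 to 0.62, -0.50 to 0.39 and -0.59 to 0.39, so differences within those bounds are not excluded by these arrays. FZD6 was therefore the 1 frizzled gene in the list whose interval lay clear of 0. In the wider list of Wnt pathway genes described below, the interval of FZD9 also did (0.12 to 1.02), and that of FZD10 did not (-0.15 to 0.66). The difference between frizzled genes was not tested.

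The co-receptors LRP5 and LRP6 form the signalling complex with frizzled. LRP5 was at 39.1, 44.1 and 68.6 with the scrambled shRNA and 61.8, 89 and 54.4 with the SALL4 shRNA, and LRP6 at 381, 465 and 488 with the scrambled shRNA and 339.9, 567 and 277 with the SALL4 shRNA. Both were most intense on SALL4 shRNA replicate 2 among the knockdown arrays, and the groups overlapped for both. LRP5 differed by 0.45 ± 0.25 (SE) and LRP6 by -0.23 ± 0.25 (SE), with adjusted p of 0.407 and 0.703. Without SALL4 shRNA replicate 2 the LRP6 difference was -0.53 (unadjusted limma p 0.0308), and without scrambled replicate 3 the LRP5 difference was 0.69 (0.0177).

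LGR4 and LGR5 are receptors for R-spondins, which protect frizzled from the membrane ubiquitin ligases ZNRF3 and RNF43. LGR5, a marker of intestinal stem cells and a Wnt target, was close to the floor at 14.6, 17.7 and 13.8 with the scrambled shRNA and 21.8, 18.2 and 23 with the SALL4 shRNA. The groups did not overlap, and the difference was 0.45, but the gene was below the filter and was not tested. RNF43, also a Wnt target, was at 35.9, 33.2 and 30.8 with the scrambled shRNA and 23, 26.7 and 33.5 with the SALL4 shRNA, overlapping, a difference of -0.28. ZNRF3 was at 108, 119.9 and 173 with the scrambled shRNA and 168, 138 and 157 with the SALL4 shRNA, and its highest scrambled array exceeded all knockdown arrays, with a difference of 0.23 ± 0.21 (SE). LGR4 was at 64.4 ± 16 and 72.3 ± 13.3 (SD, n = 3 each), a difference of 0.18 ± 0.22. Without scrambled replicate 3 the LGR4 difference was 0.019, and without SALL4 shRNA replicate 1 it was 0.037. So the 2 receptors of this axis and ZNRF3 had differences above 0 and RNF43 one below it, with no call among the 2 tested, ZNRF3 and LGR4.

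**Figure D2:**
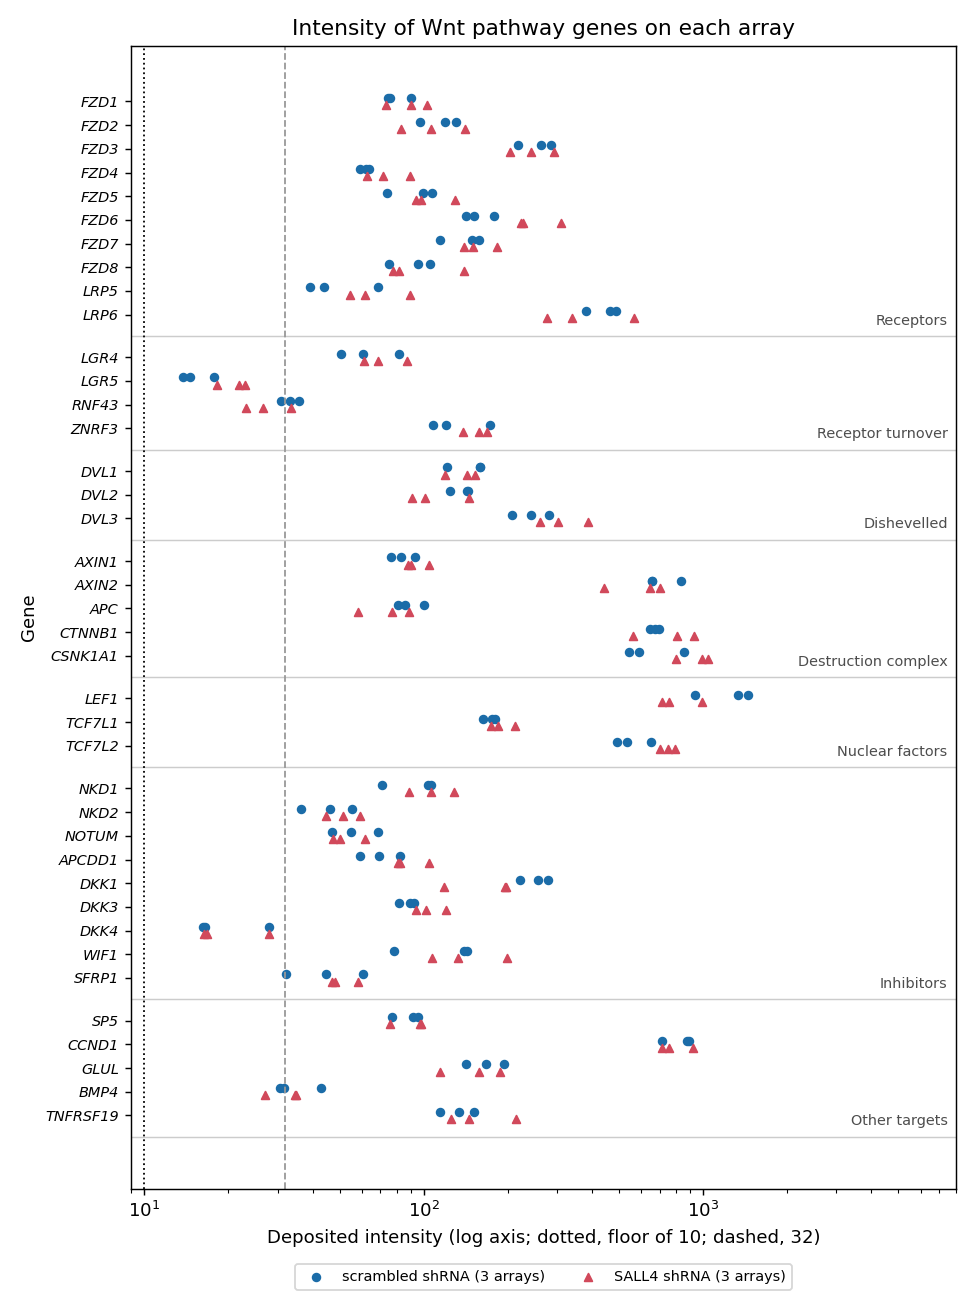
Deposited intensity (log axis) of the 39 measured members on each of the 6 arrays, scrambled as circles and SALL4 shRNA as triangles, by role. Groups are separate for FZD6, TCF7L2, DKK1, DKK3 and LGR5; LGR5 and DKK4 lie below 32, the brightness filter, on all arrays. Levels of different genes are not comparable, since probes differ in brightness.

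The dishevelled proteins carry the signal from frizzled to the axin complex. DVL3 was at 243 ± 37.5 and 316 ± 64 (SD, n = 3 each), DVL1 at 147 ± 22 and 138 ± 17.2 (SD, n = 3 each) and DVL2 at 137 ± 11.6 and 112 ± 28.6 (SD, n = 3 each). The differences were 0.37 ± 0.21 (SE), -0.08 ± 0.20 (SE) and -0.31 ± 0.21 (SE), so the 3 genes did not share a sign, and the groups overlapped in each. Their adjusted p lay between 0.406 and 0.883. DVL3 had an unadjusted p under 0.05 in 1 of the 18 other settings, without SALL4 shRNA replicate 1 (0.0499), and DVL2 in 1, without SALL4 shRNA replicate 3 (0.0319).

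The destruction complex is built on the scaffolds axin and APC. AXIN1, the constitutive scaffold gene, was at 76.2, 82.7 and 93.1 with the scrambled shRNA and 90, 87.6 and 104 with the SALL4 shRNA, with a difference of 0.16 ± 0.18 (SE). APC, the scaffold lost in most colon cancers, was at 80.7, 86 and 100.2 with the scrambled shRNA and 88.7, 58.4 and 77.1 with the SALL4 shRNA, with a difference of -0.27 ± 0.21 (SE). The groups overlapped for both, and without scrambled replicate 3 and SALL4 shRNA replicate 2 together the APC difference was -0.01. CTNNB1, which encodes beta-catenin itself, was at 695, 646 and 672 with the scrambled shRNA and 931, 803 and 560.2 with the SALL4 shRNA. The scrambled arrays lay within a narrow range and the knockdown arrays lay on both sides of it, with a difference of 0.16 ± 0.21 (SE) (interval -0.31 to 0.62). The transcript level says nothing of protein stability, where the pathway acts on beta-catenin.

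CSNK1A1, which encodes casein kinase 1 alpha, adds the priming phosphate to beta-catenin. Its intensities were 589.6, 853 and 545 with the scrambled shRNA and 993, 799 and 1042 with the SALL4 shRNA. The groups overlapped, because scrambled replicate 2 lay above SALL4 shRNA replicate 2. The difference was 0.53 ± 0.22 (SE), 1.45-fold, with an adjusted p of 0.244 (unadjusted 0.0306; exact permutation p 0.2). CSNK1A1 had an unadjusted p under 0.05 in 11 of the 18 other settings, and its difference was largest, 0.73, without scrambled replicate 2. The gene has pseudogene copies and a close paralog, CSNK1A1L, so its single values are uncertain.

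AXIN2, the inducible axin gene, is the most widely used transcriptional readout of beta-catenin. It was at 658, 830.3 and 655 with the scrambled shRNA and 701, 647 and 443 with the SALL4 shRNA. SALL4 shRNA replicate 3 was the lowest array and the other knockdown arrays lay within or next to the scrambled range. The difference was -0.28 ± 0.22 (SE), with a 95% interval of -0.75 to 0.20 and an adjusted p of 0.565; without SALL4 shRNA replicate 3 it was -0.08.

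The nuclear partners of beta-catenin bind DNA at its targets, and LEF1 and TCF7L2 lay on opposite sides of 0. LEF1, itself a Wnt target in many tumours, was at 1328, 1447 and 937 with the scrambled shRNA and 755, 715 and 988 with the SALL4 shRNA. SALL4 shRNA replicate 3 lay above scrambled replicate 3, so the groups overlapped, and the other knockdown arrays lay below all scrambled arrays. The difference was -0.59 ± 0.22 (SE), or 66.7% of the scrambled level, with an adjusted p of 0.204 (unadjusted 0.0207; exact permutation p 0.2). TCF7L2, the main TCF of liver and gut epithelium, was at 533, 492 and 651 with the scrambled shRNA and 789.8, 698 and 750.2 with the SALL4 shRNA. All knockdown arrays lay above all scrambled arrays. The difference was 0.43 ± 0.19 (SE), 1.34-fold, with an adjusted p of 0.279 (unadjusted 0.0421; exact permutation p 0.1). TCF7L1, which acts mostly as a repressor, was at 173 ± 8.47 and 191 ± 19.4 (SD, n = 3 each), a difference of 0.14 ± 0.18. Without scrambled replicate 3 and SALL4 shRNA replicate 2 LEF1 differed by -0.68 and TCF7L2 by 0.59, with unadjusted p of 0.0145 and 0.0207; of the fits without 1 array, LEF1 kept an unadjusted p under 0.05 only without scrambled replicate 3 or SALL4 shRNA replicate 3, and TCF7L2 only without scrambled replicate 3 or SALL4 shRNA replicate 2.

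**Figure D3:**
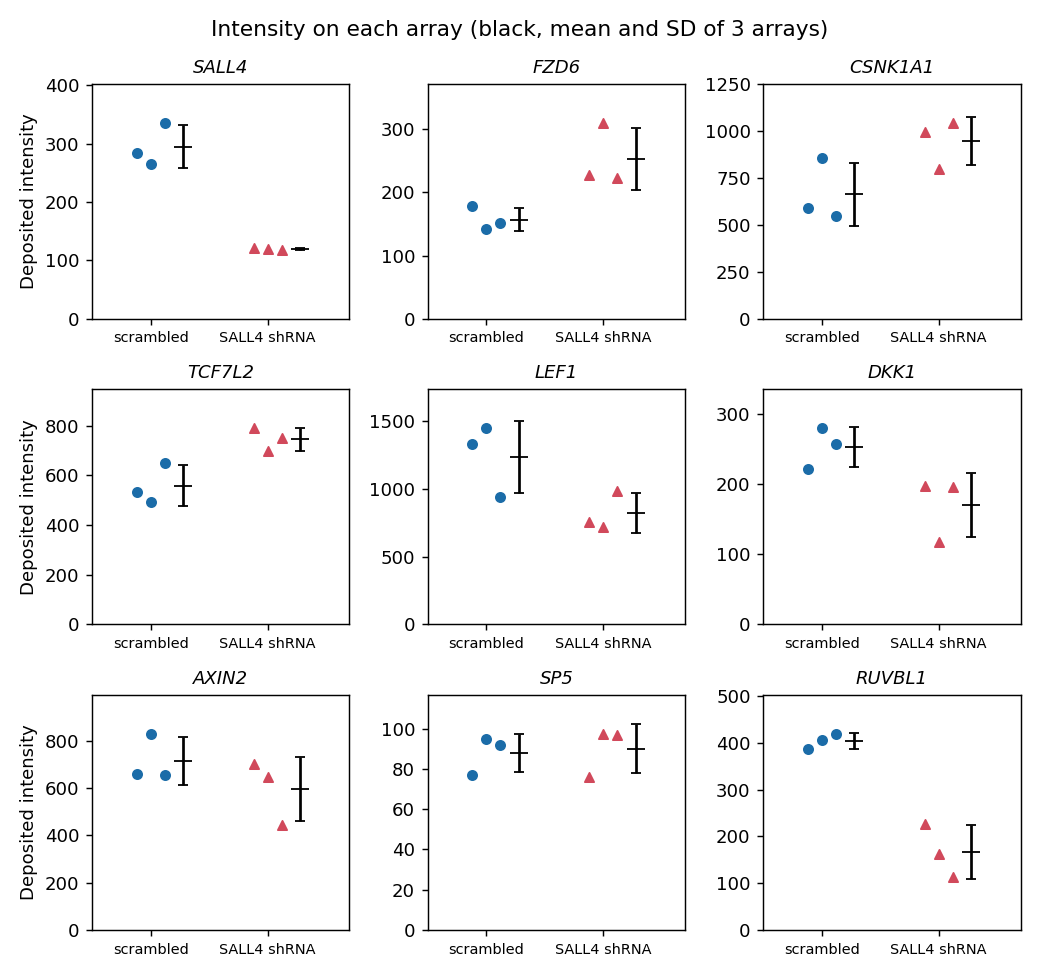
Deposited intensity on each array of SALL4, 7 Wnt members and RUVBL1, with the mean and SD of 3 arrays beside each group; all axes start at 0. SALL4, FZD6, TCF7L2, DKK1 and RUVBL1 have separate groups, while CSNK1A1, LEF1, AXIN2 and SP5 overlap.

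Secreted and membrane inhibitors limit the signal, and several are beta-catenin targets. DKK1, which blocks LRP5 and LRP6, was at 222, 279 and 257 with the scrambled shRNA and 197, 118 and 195 with the SALL4 shRNA. All knockdown arrays lay below all scrambled arrays, and replicate 2 was the lowest. The difference was -0.60 ± 0.23 (SE), 1.52-fold lower, with an adjusted p of 0.208 (unadjusted 0.0218; exact permutation p 0.1). Without SALL4 shRNA replicate 2 the DKK1 difference was -0.36 with an unadjusted limma p of 0.105, and without scrambled replicate 3 as well it was -0.34 (0.158). DKK3, a divergent relative that does not block LRP6, was at 92.7, 89.3 and 81.8 with the scrambled shRNA and 94, 119.8 and 102 with the SALL4 shRNA. Its groups were separate by a narrow gap, and the difference was 0.25 ± 0.18 (SE). Its dimmer probe set differed by 0.11. DKK4, another Wnt-induced inhibitor, lay between 16.2 and 27.9 on all arrays, below the filter, with a difference of 0.01.

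Of the feedback inhibitors, NKD1, which binds dishevelled, was at 103, 107 and 71 with the scrambled shRNA and 128, 106 and 88.9 with the SALL4 shRNA, with a difference of 0.21 ± 0.22 (SE). Its relative NKD2 was at 0.18 ± 0.21. NOTUM, a secreted enzyme that strips the lipid from Wnt proteins and a strong target in liver tumours, was at 68.3, 47 and 54.9 with the scrambled shRNA and 61.9, 47.4 and 50.2 with the SALL4 shRNA, with a difference of -0.09 ± 0.20 (SE). APCDD1, a membrane inhibitor, was at 69.2, 82.5 and 59.3 with the scrambled shRNA and 82, 104 and 80.8 with the SALL4 shRNA, with a difference of 0.34 ± 0.20 (SE). The groups overlapped for these genes, and the adjusted p of APCDD1, the lowest of the 4, was 0.426. WIF1 and SFRP1, secreted proteins that bind Wnts, were at 120.3 ± 36.3 and 146 ± 47.5 (SD, n = 3 each) and 45.8 ± 14.3 and 51.1 ± 6.01 (SD, n = 3 each). Their differences were 0.29 ± 0.28 and 0.20 ± 0.24, and the standard error of WIF1 was the highest among the members. Without scrambled replicate 3 the difference was 0.0033 for WIF1, 0.021 for NKD1 and 0.023 for NKD2, and without SALL4 shRNA replicate 3 it was 0.040 for WIF1. Of the 8 tested inhibitors 6 were above 0 and 2 below it, with DKK1 the 1 at an unadjusted p under 0.05.

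SP5, a zinc finger repressor, is among the most direct targets of beta-catenin. It was at 77, 95.1 and 91.8 with the scrambled shRNA and 75.9, 97.5 and 97.2 with the SALL4 shRNA. The values of the groups were interleaved, with a difference of 0.03 ± 0.19 (SE) and an interval of -0.39 to 0.45. CCND1, the cyclin D1 gene, was at 878, 889 and 714 with the scrambled shRNA and 709.9, 923 and 754 with the SALL4 shRNA, with a difference of -0.06 ± 0.19 (SE). GLUL, glutamine synthetase, a marker of liver tumours with mutant beta-catenin, was at 142, 193 and 168 with the scrambled shRNA and 157, 115 and 188 with the SALL4 shRNA by its brighter probe set, with a difference of -0.14 ± 0.22 (SE). The dimmer GLUL probe set differed by 0.11, so the pair did not share a sign; several GLUL pseudogenes exist, and the sources used here do not say which copy each probe set reads. BMP4, a growth factor gene induced by Wnt in several tissues, was at 35 ± 6.8 and 32.2 ± 4.37 (SD, n = 3 each) (-0.11 ± 0.20), and TNFRSF19, a receptor gene of the TNF family, at 133 ± 18.6 and 161 ± 46.1 (SD, n = 3 each) (0.25 ± 0.23). None of the 5 targets outside the other roles had an unadjusted p under 0.05, and their median difference was -0.06.

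The promoters of DKK1 and SP5 are shown because, of the members whose promoter windows were searched, these 2 hold more than 1 match to the motif of LEF1 and the TCF factors. They also differ in their values, DKK1 with the lowest difference of the tested members (-0.60) and SP5 near 0 (0.03). The windows, from RefSeq (GRCh38.p14), run from 250 bases before to 50 after each annotated start. Those of 26 of the 40 members were searched, and the other members were not. The motif was searched on both strands as CTTTG followed by 2 bases that are each A or T. It was found in windows of 4 members (SP5, DKK1, TCF7 and TCF7L2), in 4 of the 36 windows of those 26 members, and in 13.8% of all 35116 windows, while 2 or more matches were found in 1.58% of all windows. The 250 bases before each start follow, both on the plus strand, 5′ to 3′, with the matches in capitals.
DKK1, chr10:52314031-52314280: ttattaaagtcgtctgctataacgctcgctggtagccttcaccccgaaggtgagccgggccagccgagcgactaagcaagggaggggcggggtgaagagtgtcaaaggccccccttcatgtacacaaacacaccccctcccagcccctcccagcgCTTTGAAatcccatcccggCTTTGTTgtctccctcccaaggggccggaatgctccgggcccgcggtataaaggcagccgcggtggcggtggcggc
SP5, chr2:170715087-170715336: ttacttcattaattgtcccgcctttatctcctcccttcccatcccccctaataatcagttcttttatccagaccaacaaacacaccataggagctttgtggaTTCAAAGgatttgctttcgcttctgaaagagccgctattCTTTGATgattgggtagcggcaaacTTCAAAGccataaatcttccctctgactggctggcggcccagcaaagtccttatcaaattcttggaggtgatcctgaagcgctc
In DKK1 the matches begin 95 and 76 bases before the start, and in SP5 148, 109 and 84 bases before it. LEF1 and CSNK1A1 had no match in their windows, and FZD6 was not analysed here for this. A match is a run of letters, not a measured binding site, and these arrays hold no binding data.

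A wider list of 107 Wnt pathway genes is set beside the members. It was chosen with earlier results of these data known, so it is not an independent comparison. Of these, 103 were measured and 84 tested; 1 fell, 0 rose and 83 did not pass, against 1.65% of all genes. At an unadjusted p under 0.05 limma had 9 of the 84, a share of 10.7% against 16.8% of all genes, and the median difference was 0.09, against 0.02 over all genes. By role, limma called 0 of 19 ligand and secretion genes, 0 of 6 receptors, 0 of 5 secreted inhibitors, 0 of 11 cytoplasmic genes, 1 of 18 nuclear genes, 0 of 16 targets and 0 of 9 planar polarity genes.

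RUVBL1, also called pontin, is an ATPase of chromatin remodelling and small nucleolar ribonucleoprotein assembly that is known to bind beta-catenin. It was at 387, 406 and 419.9 with the scrambled shRNA and 227, 162 and 113 with the SALL4 shRNA. All knockdown arrays lay below all scrambled arrays, with replicate 3 the lowest. RUVBL1 fell by 1.33 ± 0.24 (SE) on the log2 scale, 2.51-fold, with a limma adjusted p of 0.0239. It kept the call without SALL4 shRNA replicate 1 (0.0193) and lost it without any other single array, with adjusted p from 0.0579 to 0.0833, the highest without scrambled replicate 2; the change then lay between -1.36 and -1.08. The adjusted p was 0.114 without scrambled replicate 3 and SALL4 shRNA replicate 2 together, 0.0745 when only the genes at the floor were left out, and 0.136 with no filter.

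Of the other genes in the wider list, TBL1XR1 and TNKS2 were next. TBL1XR1, an exchange factor between corepressors and beta-catenin, was at 425, 557 and 522 with the scrambled shRNA and 299.9, 248 and 314 with the SALL4 shRNA. It differed by -0.80 ± 0.19 (SE), with an adjusted p of 0.0607. TNKS2, a tankyrase that marks axin for degradation, was at 457, 442 and 551 with the scrambled shRNA and 817, 716 and 820.3 with the SALL4 shRNA. It differed by 0.70 ± 0.18 (SE), with an adjusted p of 0.0764. Both had separate groups, and neither passed. Limma with trend and robust settings, which called 486 of all genes, gave both an adjusted p under 0.05 (0.0254 and 0.0265).

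Among ligands and receptors of the wider list, WNT1 was at 0.57 ± 0.22, WNT7B at -0.54 ± 0.20, the frizzled gene FZD9 at 0.57 ± 0.21 and RYK, a Wnt co-receptor of the kinase family, at -0.46 ± 0.19. All 4 had separate groups and adjusted p from 0.191 to 0.251. TBX3, a T-box factor induced by beta-catenin in liver tumours, was at 137, 109 and 110.3 with the scrambled shRNA and 107, 71 and 78.6 with the SALL4 shRNA, a difference of -0.49 ± 0.21 (SE) with an adjusted p of 0.267. These genes are named for their low unadjusted p and did not pass. Groups were separate in 24 of the 84 tested genes of the wider list, against 22.2% of all genes. Of the 16 tested Wnt ligands 11 were above 0 and 5 below it.

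**Figure D4:**
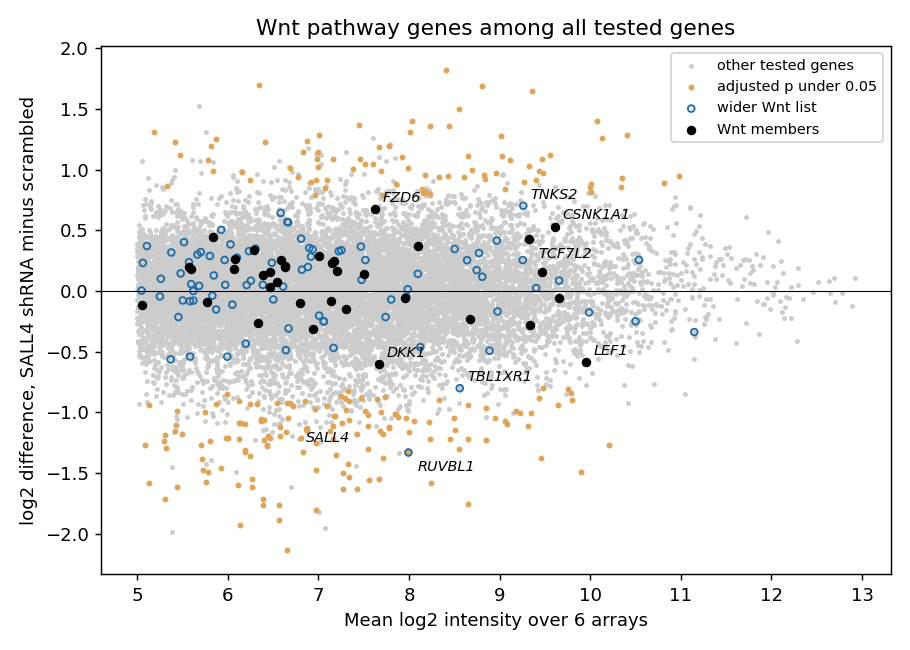
Log2 difference against mean log2 intensity for 13325 tested genes, with the 36 tested members in black, the 84 tested genes of the wider list as open circles and genes that passed (adjusted p under 0.05) in orange. No member lies among the genes that passed, and RUVBL1 does.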

How the data were processed

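Biotin-labelled SNU-398 RNA was hybridized to Affymetrix arrays, per the labels' protocols. The authors deposited 1 linear intensity for each of 32319 probe sets on 6 arrays. The submitters' processing notes name RMA, which normally ends in log2 values; how the intensities became linear, the software version and the genome build are not stated in those sources. The lowest deposited value is 10, a floor shared by 15.5% to 16.9% of each array's values, and array medians lie between 47.9 and 51.7. The planned test assumed log2 values, so log2 of each intensity was taken.

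The platform annotation gives 1 symbol to 19158 probe sets and several to 1388, and does not list 11773. Current symbols came from the Entrez identifier (19128 matched). Each of 18404 genes was represented by its brightest probe set, averaged over all 6 arrays. SALL4 shRNA minus scrambled was estimated by limma 3.58.1 (R 4.3.3; moderated, two-sided), with Benjamini-Hochberg adjustment over all tested genes and a threshold of 0.05. Tested were 13325 genes averaging at least 5 in log2 intensity over all arrays. This filter ignores the groups; 552 genes at the floor on all arrays have no variance and would distort the spread shared between genes. The number of arrays limits the precision. Scripts were tested on simulated data.

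The members and lists were chosen with earlier results of these data known. Named are SALL4, all members (array values for 17 fixed by name and for those with an unadjusted p under 0.05 or separate groups; LRP5 and LRP6 were added after their values were seen), and the 8 wider-list genes with the lowest p; array values of RUVBL1, TBL1XR1, TNKS2 and TBX3 are given among these. Alternatives were other filters, moderation, probe set rule, normalization, pseudocount, array weights, a replicate block and fewer arrays.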

Additional observations from a re-analysis of the deposited data

How the results depend on the processing

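Across 18 other settings limma called 0 Wnt members in each, and 623 of 642 single values of members kept their sign. The filters, the trend and robust settings and the replicate block leave each difference as it was, so no sign could change under them. Members that kept their sign also moved: leaving out 1 array took FZD1 (0.14) as low as 0.026, FZD5 (0.20) as low as 0.038 and TNFRSF19 (0.25) as low as 0.031, and LRP6 (-0.23) as far as -0.011. The signs that changed did so only where arrays were left out and belong to differences with an adjusted p of 0.730 or more there. Over the fits without 1 array and the fit without scrambled replicate 3 and SALL4 shRNA replicate 2 together, BMP4 ranged from -0.26 to 0.0045, CCND1 from -0.27 to 0.021, CTNNB1 from -0.00020 to 0.37, DVL1 from -0.29 to 0.021, FZD2 from -0.29 to 0.087, FZD3 from -0.19 to 0.10, FZD7 from -0.086 to 0.26, FZD8 from -0.19 to 0.23, GLUL from -0.31 to 0.056, NOTUM from -0.21 to 0.055, SFRP1 from -0.034 to 0.42 and SP5 from -0.060 to 0.15. SALL4 ranged from -1.37 to -1.20; its adjusted p was above the threshold without that pair of arrays (0.0691) and with no filter (0.0946, change -1.30). The count of members with an unadjusted p under 0.05 was 2 to 5 without 1 array. Over all genes limma called 0 of 18404 with no filter (2864 at an unadjusted p under 0.05), 40 without only the genes at the floor, 341 with a filter at 6, 486 with trend and robust settings, 433 with log2(value + 16) and 20 to 99 with arrays left out. The wider-list count of 1 was 0 with no filter, 0 without the genes at the floor, 2 with a filter at 6, 3 with trend and robust settings, 3 with log2(value + 16) and 0 to 1 with arrays left out; the cause was not tested. The labels do not say whether the replicate numbers pair the arrays. Deviations of same-numbered arrays correlated at 0.0004, -0.09 and -0.04. These values show no shared deviation but cannot settle whether the samples were prepared together. With the replicate block limma called 37 genes, 0 members (3 at an unadjusted p under 0.05) and 0 of the wider list, RUVBL1 having an adjusted p of 0.0592.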

Other observations

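LEF1 and TCF7L2 were set against each other within each array because their differences have opposite signs. The log2 intensity of LEF1 minus that of TCF7L2 was 1.32, 1.56 and 0.52 on the scrambled arrays and -0.07, 0.03 and 0.40 on the SALL4 shRNA arrays. The groups did not overlap, with means of 1.13 ± 0.54 and 0.12 ± 0.24 (SD, n = 3 each) and a difference of -1.01. Scrambled replicate 3 and SALL4 shRNA replicate 3 lay closest to each other. The pair was chosen for those values and the difference is that of LEF1 minus that of TCF7L2, so it adds no support and no test is given, and the 2 probe sets differ in brightness, so only the difference between groups can be read.

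Among the 3 knockdown arrays, replicate 2 lay farthest from its group for the typical member. The median distance of the 36 tested members from their group mean was 0.23 on the log2 scale for it, against 0.14 and 0.20 for the other knockdown arrays and 0.13 to 0.19 for the scrambled arrays. It was the highest of its group for 14 members and the lowest for 15. The same distance was not computed over all genes. Over all tested genes SALL4 shRNA replicate 2 had the lowest score on the second principal component (-23.6), so its position is not shown to be particular to the members.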
